A study of Homo sapiens with 24 samples.

Results

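The 37 genes described here act in the response to DNA damage and in its repair. They were taken by symbol from the gene counts of HepG2 cells, in which all 37 were found among 26475 symbols. All 37 had enough counts to be tested, among 11676 genes in all. HepG2 is a human line from a hepatocellular carcinoma. The cells were treated with inhibitors of bromodomain and extra-terminal (BET) proteins, with interferon gamma (IFNg) or with both, and their RNA was sequenced in 24 libraries.

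There were 8 groups of 3 libraries. Cells received DMSO, the solvent, or ABBV-075 at 50 nM, or ABBV-744 at 50 nM or at 500 nM. The other 4 groups received IFNg alone or IFNg together with one of these inhibitor treatments. ABBV-075 binds both bromodomains of BET proteins, and ABBV-744 prefers the second. The study's methods state a time for DMSO and a shorter one for ABBV-075, so that treatment and time may differ together in that comparison. The labels give no times, and the time of ABBV-744 and the dose and time of IFNg are not given in the sources used here. All groups are 1 cell line, and nothing in the labels says that replicates came from separate cultures, so that a p-value measures only the spread between these libraries.

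Cells read DNA breaks through the kinases ATM and ATR, which signal to the checkpoint kinases CHEK1 and CHEK2 and, through p53, to its regulator MDM2. Double-strand breaks are repaired by homologous recombination, which copies the sister chromatid with the help of the BRCA and Fanconi anaemia proteins, or by end joining, for which the XRCC5 and XRCC6 subunits (Ku80 and Ku70) hold the broken ends. Mismatch repair, nucleotide excision repair and single-strand break repair correct other lesions. BET proteins bind acetylated chromatin and promote transcription, and expression of many recombination genes follows the cell cycle.

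The transcripts of the members had a lower median GC content than those of all tested genes, and the measured changes moved with GC content. The GC content of the longest transcript had a median of 42.3% over the 37 members (from 35.5% to 63.8%), against 47.6% over 11382 tested genes with a value. It was under 45% in 23 of the 37 members (62.2%), against 40.6% of the tested genes. Their longest transcripts had a median of 5582 nt, against 3840 nt. To show what this range looks like, the middle 120 bases of the longest coding exon of 4 members are given from the hg38 build, 5′ to 3′ on the strand of the gene, with every G and C in capitals. BRCA2 and FANCM were among the members with the largest changes and have transcripts with 36.4% and 37.7% GC. XRCC1 and ERCC2, with 58.5% and 60% GC, lie at the other end.
BRCA2, exon 11, chr13:32338671-32338790, plus strand: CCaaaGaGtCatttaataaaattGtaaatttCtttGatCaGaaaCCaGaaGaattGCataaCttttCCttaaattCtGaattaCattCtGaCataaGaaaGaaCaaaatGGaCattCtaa
FANCM, exon 14, chr14:45175964-45176083, plus strand: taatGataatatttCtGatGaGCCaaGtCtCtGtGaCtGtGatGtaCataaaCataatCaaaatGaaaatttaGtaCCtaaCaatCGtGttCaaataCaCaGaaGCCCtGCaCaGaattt
XRCC1, exon 9, chr19:43552087-43552206, minus strand: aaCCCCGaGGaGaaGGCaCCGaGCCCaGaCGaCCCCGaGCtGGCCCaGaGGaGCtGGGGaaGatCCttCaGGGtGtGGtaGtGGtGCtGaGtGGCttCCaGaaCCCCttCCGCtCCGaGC
ERCC2, exon 11, chr19:45363768-45363887, minus strand: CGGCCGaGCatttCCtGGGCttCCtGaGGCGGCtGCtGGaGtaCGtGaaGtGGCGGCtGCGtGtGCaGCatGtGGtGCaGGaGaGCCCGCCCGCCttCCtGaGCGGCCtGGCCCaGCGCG
G and C make up 26.7% of the BRCA2 window and 32.5% of the FANCM window, against 65% of the XRCC1 window and 70% of the ERCC2 window.

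Between 2978982 and 4304103 reads per library were counted on genes. Libraries differed in how the level of a gene depended on its GC content. The difference between the fifth of genes with the highest and the fifth with the lowest GC content was measured in each library, as a median log2 deviation from the DMSO mean, and is called the GC trend of the library. It was -0.97 and -0.64 in ABBV-075 replicates 1 and 2 but 0.01 in replicate 3, which stood apart from both. It lay between 0.06 and 0.92 in the 6 ABBV-744 libraries without IFNg, between -0.95 and -0.34 in the 9 libraries that received IFNg and an inhibitor, and between -0.11 and 0.37 in the DMSO and IFNg libraries. Each comparison was therefore fitted without a correction, which gave the main result, and again with the GC trend of each library taken out. Called means an adjusted p of at most 0.05 in edgeR's quasi-likelihood test. Genes that mark the treatments were read beside the labels. HEXIM1, which BET inhibitors raise, was at 50.6 to 56.8 CPM (counts relative to the normalized size of the library) in the DMSO libraries and at 137 to 151.9 CPM in the 3 ABBV-075 libraries, so that replicate 3 did not stand apart in it. With ABBV-744 at 500 nM HEXIM1 was called higher (log2 fold change 0.73), but at 50 nM neither HEXIM1 (0.27, adjusted p = 0.0992) nor MYC (-0.2, adjusted p = 0.149) was called, and with the GC correction MYC was (-0.26, adjusted p = 0.0491). IRF1, an early target of IFNg, rose with IFNg (log2 fold change 4.26). Hepatocyte genes summed to 16150 to 24280 CPM, 3 blood markers had no counts, 4 fibroblast markers summed to at most 0.635 CPM and 3 endothelial markers to at most 2.15 CPM.

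In a bulk measurement, fewer cells of a kind and less RNA per cell cannot be told apart. In cells with DMSO the repair genes spanned a wide range. Per kilobase of the longest transcript, the mean level in DMSO was highest for XRCC6 (196 CPM per kb, SD 7.57, n = 3) and XRCC5 (72.3, SD 4.09), the Ku subunits that bind broken ends. MDM2, the ubiquitin ligase that restrains p53, followed at 38.4 CPM per kb. ERCC3, a helicase of nucleotide excision repair, and PRKDC, the kinase that Ku recruits, lay at 29.4 and 27.4 CPM per kb, and their ranges overlapped. The lowest levels per kilobase were those of FANCM, WRN, TP53BP1, XPC and LIG4, at 2.25, 1.78, 1.1, 0.901 and 0.323 CPM per kb. BRCA2 was at 3.09 CPM per kb. LIG4 had as few as 4 counts in a library and XPC as few as 7, and their values are correspondingly uncertain.

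With ABBV-075 at 50 nM, 16 of the 37 members were higher than with DMSO and 2 were lower. The higher members were 43.2% of the list, against 25% of all tested genes that were called higher, and the lower ones 5.41%, against 22.3%. The largest increases were in BRCA2, which acts in homologous recombination, in the kinase ATR and in FANCM, a translocase that acts at stalled forks, while XRCC5 and XRCC6 fell. With the GC trend taken out, 12 members were higher and 2 lower (32.4% and 5.41%, background 23.6% and 25.1%). The median log2 fold change of the 37 members moved from 0.32 to 0.07. Over all genes tested the medians were 0.04 and 0.00. Called higher in both fits were 10 members, ATM, ATR, CHEK1, BRCA2, PALB2, BRIP1, FANCI, FANCM, BLM and XPC, and both Ku genes were called lower in both. The count depended on single libraries: 9 members were called without ABBV-075 replicate 1, and 24 without replicate 3, the library that stood apart. With the GC trend taken out as well, 10 and 19 were called. The share of all tested genes called in these fits is not given here, so that the swing cannot be read as particular to the members. The correction also depended on how the GC content of a gene was taken. An alternative chosen after seeing the data took the mean over the transcripts of a gene in place of the longest. With it 9 of the 37 members were higher and 3 lower. The share higher was near the background of 23.8%, and the share lower was below the background of 25.1%. ATM and PALB2 were not called with it (log2 fold change 0.21 and 0.19, adjusted p = 0.096 and 0.0609). In every fit that left out 1 of the 6 libraries, without the GC correction, 8 members were called: ATR, BLM, BRCA2, BRIP1, FANCM, XPC, XRCC5 and XRCC6.

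Among the damage kinases, ATR (chr3:142449007-142578733, minus strand, GRCh38) had the largest fold change. It was at 31.9, 31.8 and 32 CPM in the DMSO libraries and at 100, 90.5 and 52 CPM in the ABBV-075 libraries, so that the lowest treated library still lay above every control. Its log2 fold change was 1.35 (SE 0.18, adjusted p = 5.54e-07), and 1 with the GC correction (adjusted p = 3.09e-09). ATM, the kinase that answers double-strand breaks, was at 101, 104 and 97.3 CPM with DMSO and at 230, 179 and 91.4 CPM with ABBV-075. Replicate 3 thus lay below the controls. The log2 fold change of ATM was 0.73 (SE 0.21, adjusted p = 0.00549) and 0.35 with the GC correction (adjusted p = 0.0179), a call that the mean over transcripts did not give. CHEK1, which ATR activates, rose by a log2 fold change of 0.54, and by 0.33 with the GC correction. CHEK2, a target of ATM, was called only with the GC correction (log2 fold change 0.17 without and 0.27 with it). CHEK2 has near-identical pseudogene copies, and reads that align to several places were not counted. MDM2 was higher without the correction (log2 fold change 0.38, adjusted p = 0.011) and was not called with it (0.03, adjusted p = 0.739).

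Of the 5 members of the BRCA group, 4 were called higher. BRCA2 (chr13:32315086-32400268, plus strand, GRCh38) was at 35.1, 36.2 and 40.5 CPM with DMSO and at 211, 120 and 56.8 CPM with ABBV-075. The groups did not overlap, but the 3 treated libraries were spread over a wide range. The log2 fold change of BRCA2 was 1.8 (SE 0.28, adjusted p = 6.3e-06), a 3.49-fold difference. It was 1.27 with the GC correction (adjusted p = 7.69e-08), a 2.42-fold difference. BRIP1, a helicase that binds BRCA1, was at 41.3, 48.6 and 36.7 CPM with DMSO and at 95.1, 78.4 and 48.7 CPM with ABBV-075, where replicate 3 only just exceeded the highest control. Its log2 fold change was 0.82 (SE 0.19) and 0.38 with the GC correction (adjusted p = 0.00377). PALB2, which joins BRCA1 to BRCA2, rose by a log2 fold change of 0.41, and by 0.24 with the correction. BRCA1 itself was called without the correction (0.5, adjusted p = 0.0488) and not with it (0.36, adjusted p = 0.0654). BARD1, its partner, was not called in either fit.

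The genes of end resection, which trim a break before recombination, lost their calls with the GC correction. NBN and MRE11A, members of the MRN complex, were called higher without the correction (log2 fold change 0.73 and 0.47) and not with it (0.2 and 0.06). RAD50, the third subunit, had a log2 fold change of 0.47 (adjusted p = 0.0907). Of the Fanconi genes, FANCM was at 14.7, 16.9 and 16.5 CPM with DMSO and at 58.1, 33.3 and 25 CPM with ABBV-075, without overlap. It rose by a log2 fold change of 1.29 (SE 0.24, adjusted p = 5.99e-05), and by 0.84 with the correction (adjusted p = 7.87e-05). FANCI, which is clamped onto DNA with FANCD2, rose in both fits (0.54 and 0.33). The helicase BLM, which unwinds recombination intermediates, was at 17.7, 18.9 and 23.1 CPM with DMSO and at 57.4, 37 and 30.7 CPM with ABBV-075. All 3 treated libraries lay above the controls, with a log2 fold change of 1.08 (SE 0.2) and 0.83 with the correction (adjusted p = 2.29e-05). WRN, the other RecQ helicase, was called without the correction only (0.64 and 0.23). None of the 4 strand exchange genes was called without the correction, and XRCC3 alone was called with it (log2 fold change 0.29 and 0.39).

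**Figure D1:**
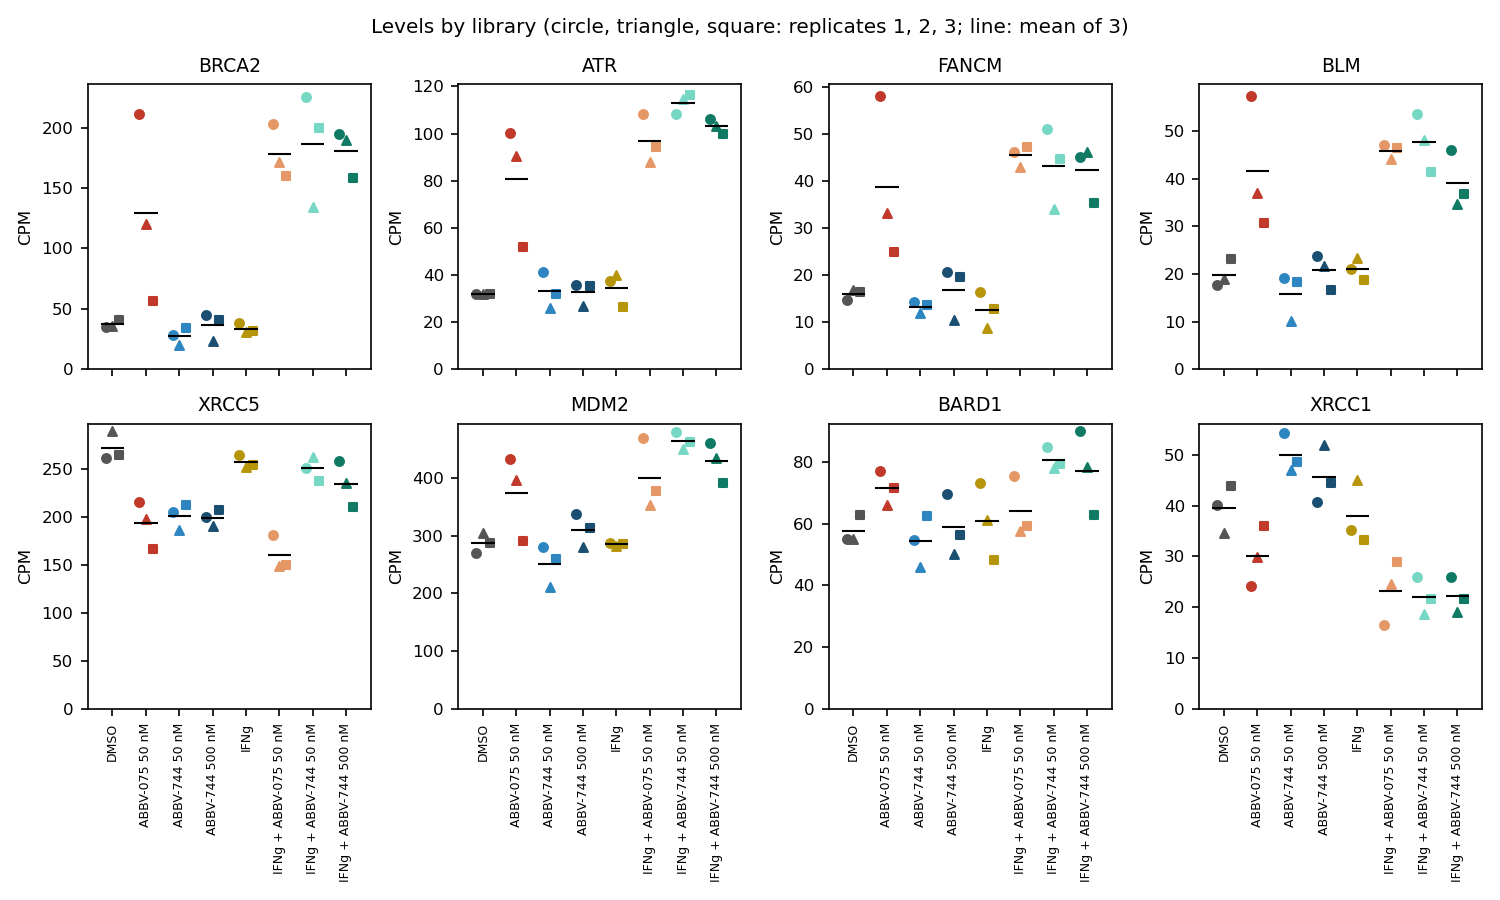
Level of 8 members in CPM (vertical axis, from 0) in each of the 24 libraries, by group (horizontal axis); circles, triangles and squares are replicates 1, 2 and 3, and lines are the means of 3 libraries. ABBV-075 replicate 3 lies nearest to the DMSO libraries for BRCA2 (56.8 CPM) and ATR (52 CPM), while XRCC5 is below its DMSO level in all 3 ABBV-075 libraries.

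End joining genes moved in both directions. XRCC5 (chr2:216107464-216206303, plus strand, GRCh38) was at 262, 290 and 265 CPM with DMSO and at 215, 197 and 166 CPM with ABBV-075, and the groups did not overlap. Here replicate 3 was the lowest library. The log2 fold change of XRCC5 was -0.49 (SE 0.098, adjusted p = 0.000157) and -0.55 with the GC correction (adjusted p = 5.06e-08). XRCC6 fell too, by a log2 fold change of -0.29 and of -0.18 with the correction (adjusted p = 0.0233). LIG4, the ligase that seals the joined ends, was at 2.41, 2.22 and 1.91 CPM with DMSO and at 6.51, 4.31 and 3.31 CPM with ABBV-075. It was higher without the correction (1.13, SE 0.39, adjusted p = 0.0176) and missed the threshold with it (0.79, adjusted p = 0.0792). PRKDC had log2 fold changes of 0.04 and 0.03 in the 2 fits. XRCC1, the scaffold of single-strand break repair, had a log2 fold change of -0.41 (adjusted p = 0.0545).

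Of the 4 nucleotide excision repair genes only XPC, which recognises distorted DNA, was called. It was at 1.88, 4.88 and 3.1 CPM with DMSO and at 5.79, 8.9 and 7.52 CPM with ABBV-075. The groups did not overlap, with a log2 fold change of 1.12 (SE 0.29, adjusted p = 0.00237) and 1.24 with the correction. The mean of XPC was 3.98 CPM with IFNg alone and 4.33 CPM with ABBV-075 added, and it was not called without the GC correction. The difference between its effects with and without IFNg was -0.98. It was not called in either fit, so that a change of the effect with IFNg was not shown. ERCC3 had a log2 fold change of -0.03 (95% interval from -0.21 to 0.14). Neither of the 2 mismatch repair genes, MSH6 and PMS2, was called, and neither was a break adaptor, MDC1 or TP53BP1. PMS2 and FANCD2, like CHEK2, share sequence with pseudogenes.

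**Figure D2:**
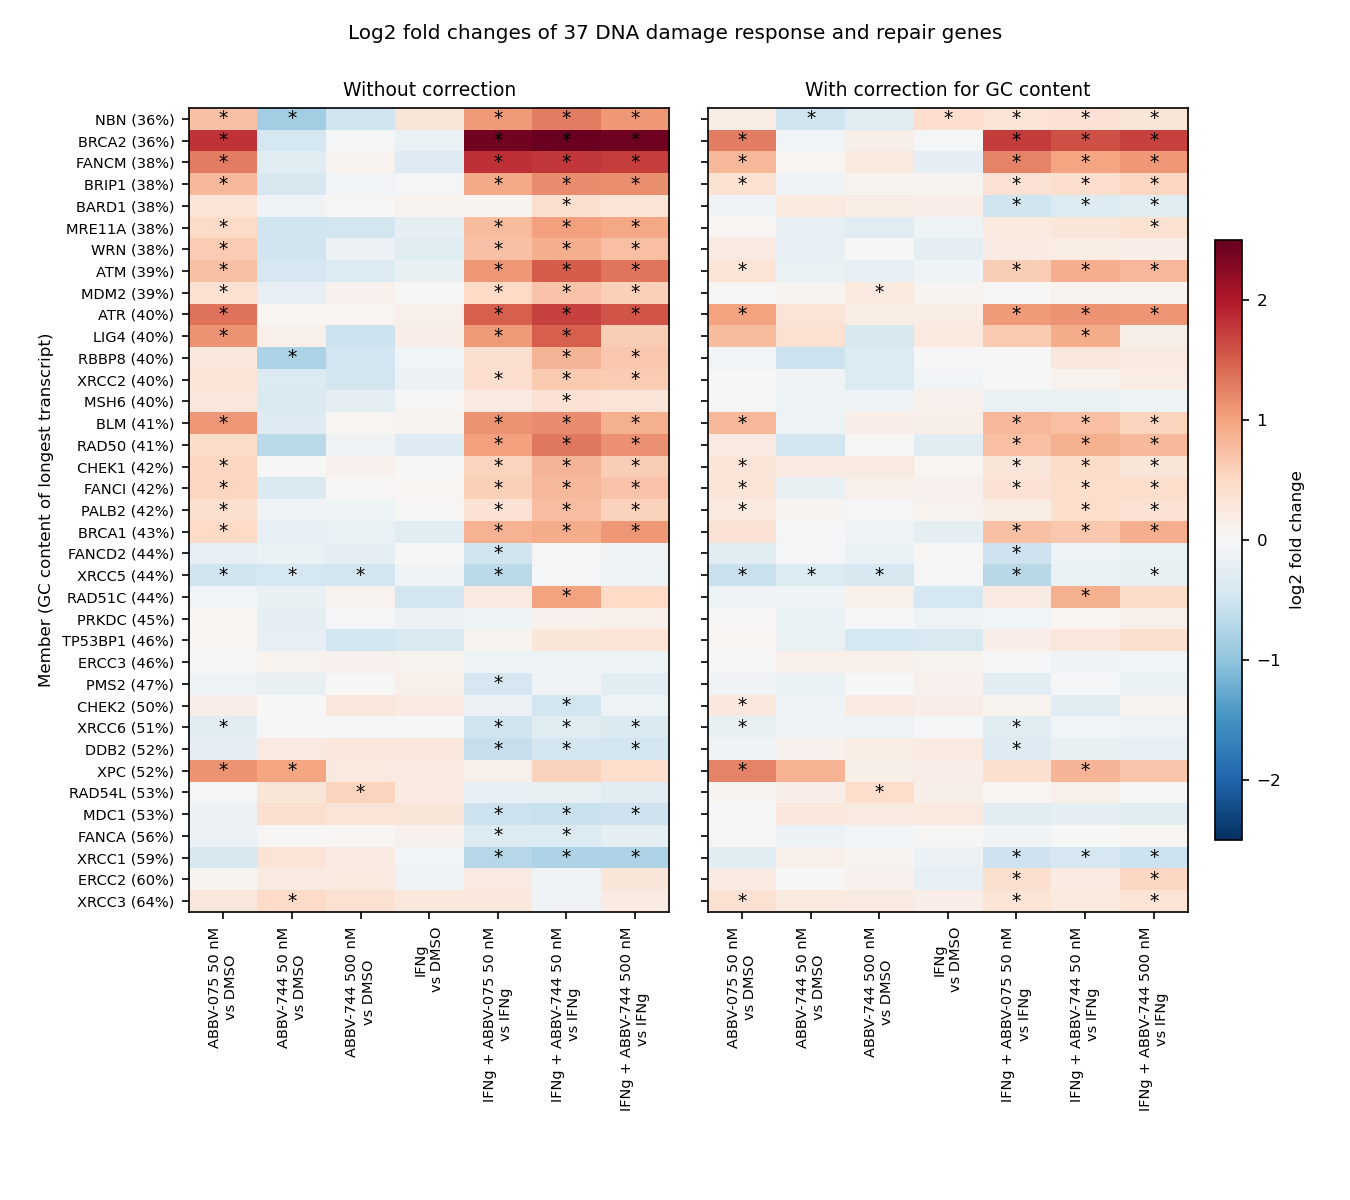
Log2 fold change (colour scale) of the 37 members (rows, from the lowest to the highest transcript GC content) in 7 comparisons (columns), without and with correction for GC content; an asterisk marks an adjusted p of at most 0.05. In the comparisons with an inhibitor and IFNg the increases gather in the upper, AT-rich rows and are paler with the correction, as for BRCA2 with IFNg and ABBV-744 at 50 nM, from 2.48 to 1.61.

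The size of a member's change went with its GC content in every inhibitor comparison, and the sign of this relation was not the same for all treatments. Over the 37 members, Pearson's r of the log2 fold change with GC content was -0.55 for ABBV-075 against DMSO, where r over all tested genes was -0.27. Taken for each ABBV-075 library against the DMSO mean, r ran from -0.7 to 0.03. For ABBV-744 r was 0.74 at 50 nM and 0.62 at 500 nM, against 0.51 and 0.28 over all tested genes. With IFNg, r was -0.63 for ABBV-075, -0.77 for ABBV-744 at 50 nM and -0.69 at 500 nM, against -0.31, -0.62 and -0.48. For IFNg alone it was 0.34, against 0.15, and by library it ran from -0.15 to 0.58. The members share libraries and are not independent replicates, so that these values carry no p. After the correction r was between -0.42 and 0.34 in the 7 comparisons. Transcript length gave the opposite sign, with r of 0.49 for ABBV-075 and -0.47 for ABBV-744 at 50 nM. With length corrected in place of GC content, the median of the members with ABBV-075 was 0.24, and 15 members were called. With both corrected, 11 were called. The shares of all tested genes called in these fits are not given here.

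**Figure D3:**
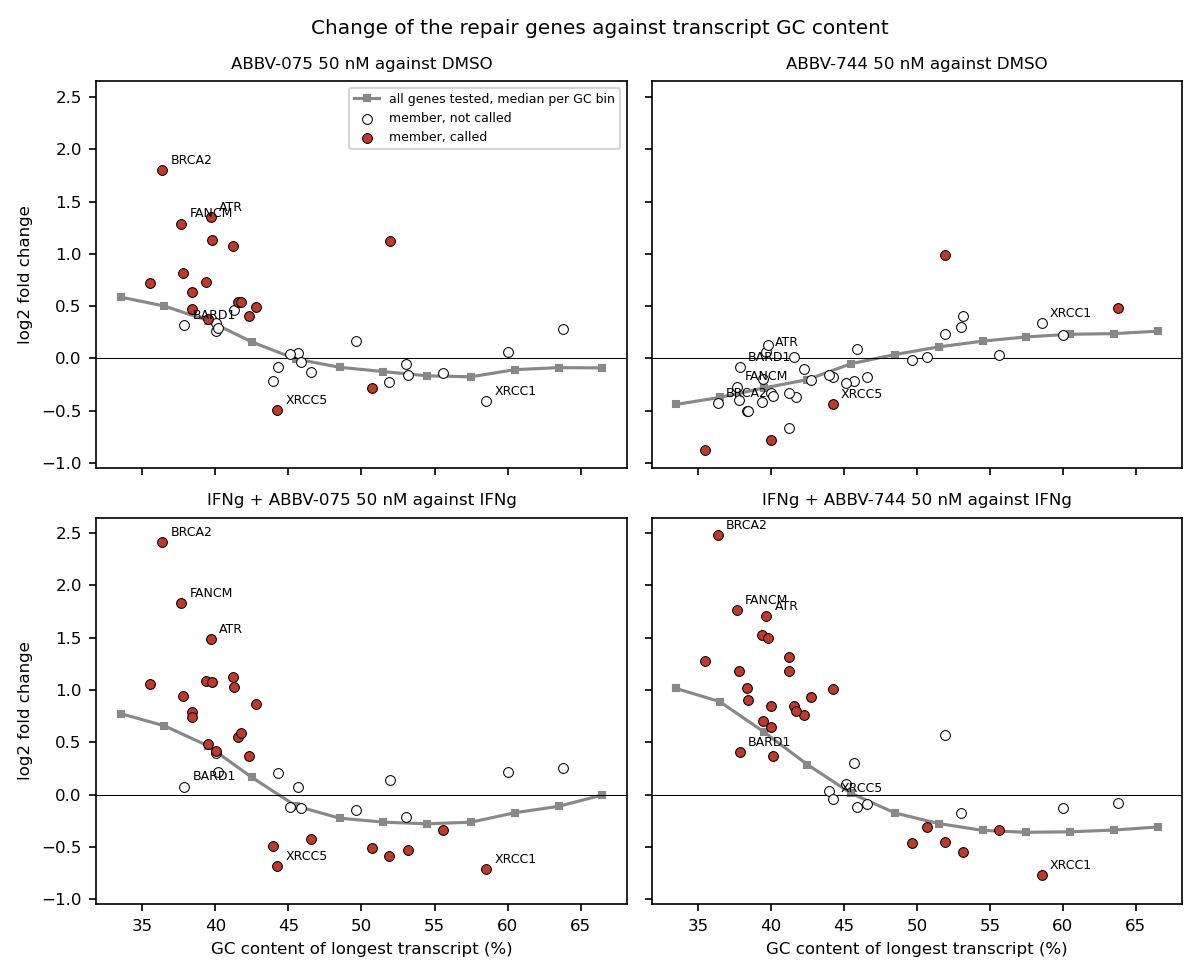
Log2 fold change (vertical axis) of the 37 members against the GC content of the longest transcript in percent (horizontal axis) in 4 comparisons; filled points were called, and the grey line joins the medians of all tested genes in bins of GC content. The grey line is highest at the lowest GC content except with ABBV-744 at 50 nM alone, where it is lowest there, and BRCA2, ATR and FANCM lie above it in the other 3 panels.

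The deviations of the members are given by library beside the GC trend. Both come from the same counts, so that their relation is a description and no further support. In the 23 members under 45% GC, the median log2 deviation from DMSO was 0.89 and 0.53 in ABBV-075 replicates 1 and 2, whose GC trends were -0.97 and -0.64. In replicate 3, with a trend of 0.01, it was 0.03. In ABBV-744 50 nM replicate 2, with the steepest positive trend of 0.92, it was -0.58. In the 14 members of 45% GC or more, the median lay between -0.29 and 0.19 in all 24 libraries. GC trend and treatment moved together in most groups and cannot be told apart there. Single members did not all follow the median: in ABBV-075 replicate 3, BRCA2, ATR, FANCM and BLM lay above every DMSO library, at 56.8, 52, 25 and 30.7 CPM.

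**Figure D4:**
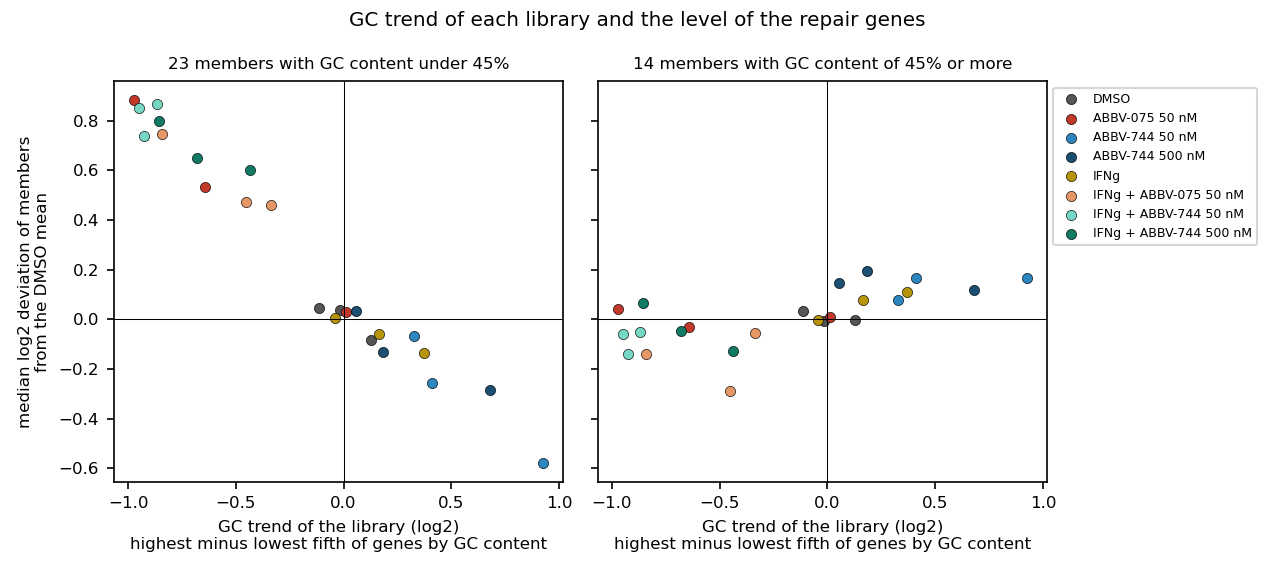
Median log2 deviation from the DMSO mean (vertical axis) of the 23 members under 45% GC (left) and the 14 others (right) against the GC trend of the library (horizontal axis, log2), 1 point for each of 24 libraries. In the left panel the points run from 0.89 at a trend of -0.97 to -0.58 at a trend of 0.92; in the right panel they stay between -0.29 and 0.19.

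ABBV-744 without IFNg called few members. At 50 nM 2 were higher and 3 lower (5.41% and 8.11% of the members, against 6.12% and 6.66% of the tested genes). With the GC correction 0 were higher and 2 lower (0% and 5.41%, background 4.28% and 5.33%). XPC was at 5.37, 7.23 and 7.62 CPM, above the DMSO libraries, with a log2 fold change of 0.99 (SE 0.3, adjusted p = 0.0308), and 0.86 with the correction (adjusted p = 0.0651). NBN was at 32.5, 16.6 and 21.6 CPM, below all 3 DMSO libraries at 45.6, 45.5 and 39.6 CPM, with a log2 fold change of -0.88 (adjusted p = 0.0181), and of -0.51 with the correction (adjusted p = 0.0152). RBBP8, a resection factor, was at 13.4, 8.17 and 12.1 CPM against 18.2, 19.5 and 20.3 CPM in DMSO, without overlap, and was called lower without the correction only (-0.78 and -0.54). XRCC3 was at 36.4, 43 and 42.6 CPM against 26.5, 30.4 and 29.8 CPM, also without overlap, and was called higher without the correction only (0.49 and 0.24). Without ABBV-744 50 nM replicate 2, 1 member was called, and without replicate 1, 9 were, given here without the share of all tested genes.

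XRCC5 was called lower in both fits with every inhibitor treatment given without IFNg. It was at 205, 186 and 212 CPM with ABBV-744 at 50 nM and at 199, 190 and 207 CPM at 500 nM, below all DMSO libraries. The log2 fold change was -0.44 at 50 nM (adjusted p = 0.00521) and -0.45 at 500 nM (adjusted p = 0.00279), or -0.35 and -0.41 with the GC correction. These comparisons share the DMSO libraries with the ABBV-075 comparison. At 500 nM RAD54L, a motor protein of strand exchange, was the only other member called without the correction (background 5.74% higher and 5.64% lower). It was at 29.1, 31.1 and 29.1 CPM against 18.2, 21.8 and 20.8 CPM in DMSO, without overlap, and its log2 fold change was 0.55 (adjusted p = 0.0331), or 0.44 with the correction. With the correction 2 members were higher and 1 lower (5.41% and 2.7%, background 6.39% and 8.5%), and MDM2 was called higher there only (0.11 and 0.25). BRCA2 was not called with ABBV-744 (log2 fold change -0.43 at 50 nM with a 95% interval from -1.08 to 0.22, and -0.03 at 500 nM, from -0.65 to 0.59).

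IFNg alone called 0 of the 37 members in edgeR and 0 in DESeq2, while 2.27% of all tested genes were called. At an unadjusted p under 0.05 there was 1 member, DDB2, which senses ultraviolet damage (log2 fold change 0.27). BRCA2 had a log2 fold change of -0.16 (95% interval from -0.78 to 0.47) and XRCC5 one of -0.08 (from -0.28 to 0.12). With the GC correction NBN alone was called (background 3.12%). It was at 55.7, 55.2 and 51.2 CPM, above the DMSO libraries (log2 fold change 0.31 without and 0.42 with the correction, adjusted p = 0.0372).

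Without the GC correction, a larger share of the members than of all tested genes was called higher when an inhibitor was added to IFNg. Against IFNg alone, ABBV-075 gave 17 higher and 8 lower members (45.9% and 21.6%, background 26.2% and 27.3%). ABBV-744 at 50 nM gave 21 higher and 6 lower (56.8% and 16.2%, background 24.2% and 22.4%), and at 500 nM 17 higher and 4 lower (45.9% and 10.8%, background 21.1% and 20.2%). With the GC correction the numbers higher and lower were 13 and 6 (35.1% and 16.2%, background 25.1% and 28%) with ABBV-075. They were 15 and 2 (40.5% and 5.41%, background 14.5% and 17.2%) with ABBV-744 at 50 nM. At 500 nM they were 15 and 3 (40.5% and 8.11%, background 15.8% and 18.7%). The median log2 fold change of the members moved with the correction from 0.25 to 0.18, from 0.65 to 0.24 and from 0.5 to 0.22. With the mean over transcripts the numbers were 11 and 7, 11 and 5, and 13 and 3, against backgrounds of 24.9% and 27.7%, 14.5% and 17%, and 16% and 18.6%. With ABBV-075 the share of members higher was then little above its background. These 3 comparisons share the IFNg libraries. All libraries with IFNg and an inhibitor had negative GC trends, and trend and treatment cannot be told apart there.

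BRCA2 was at 38.2, 30.7 and 31.3 CPM with IFNg alone. It was at 203, 171 and 160 CPM with ABBV-075 added, at 225, 134 and 200 CPM with ABBV-744 at 50 nM and at 194, 190 and 158 CPM at 500 nM, in each case far from overlap. Its log2 fold changes were 2.41, 2.48 and 2.43 (SE 0.28, 0.28 and 0.29), and 1.75, 1.61 and 1.7 with the correction. FANCM was at 16.4, 8.86 and 12.9 CPM with IFNg and at 46.2, 43 and 47.3 CPM with ABBV-075 added. With ABBV-744 added it was at 51.1, 34.2 and 44.8 CPM at 50 nM and at 45.3, 46.3 and 35.4 CPM at 500 nM. Every library with an inhibitor thus exceeded those with IFNg alone, and the log2 fold changes of FANCM were 1.83, 1.77 and 1.73, or 1.25, 0.99 and 1.08 with the correction. ATR was at 37.4, 39.9 and 26.6 CPM with IFNg and between 88.1 and 116 CPM in the 9 libraries with an inhibitor. Its log2 fold changes were 1.49, 1.71 and 1.57, and 1.06, 1.12 and 1.09 with the correction.

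ATM was at 93.3, 90 and 82.8 CPM with IFNg alone and at 270, 237 and 257 CPM with ABBV-744 at 50 nM added, and at 236, 220 and 220 CPM at 500 nM, without overlap. The log2 fold changes were 1.52 and 1.34, and 0.9 and 0.83 with the correction. BLM was at 21, 23.3 and 18.7 CPM with IFNg and at 47, 44.1 and 46.4 CPM with ABBV-075 added, a log2 fold change of 1.12 and of 0.84 with the correction. RAD51C, a recombination gene, was called higher with ABBV-744 at 50 nM (1.01, and 0.89 with the correction), but not with the mean over transcripts (0.45, adjusted p = 0.104). XRCC1 fell in all 3 comparisons in both fits. Without the correction its log2 fold changes were -0.71, -0.77 and -0.78 (adjusted p = 0.00163, 0.00102 and 0.00142), and with it -0.51, -0.43 and -0.53. XRCC5 fell with IFNg and ABBV-075 (-0.68, adjusted p = 1.94e-06), with 181, 149 and 150 CPM against 265, 252 and 254 CPM. With IFNg and ABBV-744 it was at -0.04 at 50 nM and -0.13 at 500 nM, neither called, though the value at 500 nM was called with the correction (-0.19, adjusted p = 0.0381), and both were with the mean over transcripts (-0.45 and -0.44).

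For BARD1 the sign depended on which transcripts gave its GC content. Its longest transcript has 37.9% GC, and the mean over its transcripts is 45.4%. It was at 73.4, 61.1 and 48.4 CPM with IFNg, at 75.6, 57.7 and 59.4 CPM with ABBV-075 added and at 84.9, 78 and 79.3 CPM with ABBV-744 at 50 nM added. At 50 nM of ABBV-744 the log2 fold change was 0.4 (adjusted p = 0.0272) without the correction and -0.35 (adjusted p = 0.0198) with it. With ABBV-075 it was 0.08 and -0.5, and with ABBV-744 at 500 nM 0.34 and -0.3, of which the corrected values were called. With the mean over transcripts it was 0.2 with ABBV-744 at 50 nM (adjusted p = 0.175), 0.01 with ABBV-075 and 0.22 with ABBV-744 at 500 nM, none of them called, so that no direction is given for BARD1.

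The marker genes were read with IFNg as well. HEXIM1 was at 44.8 to 49.3 CPM with IFNg alone, at 128.6 to 140.1 CPM with ABBV-075 added and at 69.4 to 73.2 CPM with ABBV-744 at 500 nM added. With ABBV-744 at 50 nM added it was at 38.7 to 55.5 CPM (log2 fold change 0.07, adjusted p = 0.639). MYC fell there (log2 fold change -0.66). The GC trends of those 3 libraries, -0.95, -0.93 and -0.87, were steeper than in any DMSO or IFNg library, and their part in the result was not tested beyond this correction.

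At the matched dose of 50 nM without IFNg, 21 members were higher with ABBV-075 than with ABBV-744 and 4 were lower (56.8% and 10.8%, background 26.8% and 24.8%). With the GC correction 11 were higher and 3 lower (29.7% and 8.11%, background 20.3% and 21.4%). With the mean over transcripts it was 9 and 3 (background 19.8% and 21.6%). BRCA2 differed most, by a log2 value of 2.23 (SE 0.3) and of 1.35 with the correction, followed by NBN (1.6 and 0.7) and FANCM (1.56 and 0.79). XRCC1 was lower with ABBV-075 in both fits (-0.75 and -0.39). BARD1 was higher without the correction and lower with it (0.4 and -0.33), and was not called with the mean over transcripts (0.18, adjusted p = 0.229). For XRCC5 the difference was -0.06 (95% interval from -0.26 to 0.15) and for XPC 0.13 (from -0.42 to 0.68), so that neither compound could be placed above the other, although XRCC5 was called lower with ABBV-075 after the correction (-0.2, adjusted p = 0.0235). No time is given for ABBV-744 in the sources used here, so that the times of the compounds may differ.

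In the presence of IFNg the compounds differed in 5 members at 50 nM (13.5%, background 26.1%). RAD51C, XRCC5, FANCD2 and PALB2 were lower with ABBV-075 than with ABBV-744 (log2 values -0.8, -0.64, -0.53 and -0.4), and CHEK2 was higher (0.32). All 5 were called with the GC correction too (background 29.6%), which called XRCC6 in addition. FANCD2 was not called with the mean over transcripts (-0.38, adjusted p = 0.052). BRCA2 differed by -0.07 (95% interval from -0.57 to 0.44) and ATR by -0.22 (from -0.55 to 0.11). The count was 1 without IFNg + ABBV-075 50 nM replicate 2 and 9 without replicate 1, and XRCC5 alone was called in every fit that left out 1 library. This swing is given without the share of all tested genes called, so that it cannot be read as particular to the members. Of the 3 contrasts between compounds or doses, each was adjusted over all genes tested. Between the doses of ABBV-744, 500 nM and 50 nM, edgeR and DESeq2 called 0 members (background 0.0771%). At an unadjusted p under 0.05 there were 5, and the share of all genes at that p is not given here. The difference was 0.4 for BRCA2 (95% interval from -0.26 to 1.06), -0.02 for ATR (from -0.42 to 0.39) and -0.02 for XRCC5 (from -0.22 to 0.19).

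Whether IFNg changed the effect of an inhibitor was tested as an interaction. For ABBV-075 edgeR and DESeq2 called 0 members (background 0.0428%). At an unadjusted p under 0.05 there were 2, and the share of all genes at that p is not given here. The difference between its effects was 0.61 for BRCA2 (95% interval from -0.2 to 1.42) and -0.19 for XRCC5 (from -0.47 to 0.1). The lowest difference among the members was that of XPC, at -0.98. For ABBV-744 at 50 nM 20 members had a higher and 7 a lower effect with IFNg (54.1% and 18.9%, background 24% and 22.4%). With the GC correction it was 13 and 2 (35.1% and 5.41%, background 8.91% and 9.66%). With the mean over transcripts it was 7 and 3 (background 9.08% and 9.57%). At 500 nM 16 were higher and 6 lower (43.2% and 16.2%, background 15.9% and 12.5%). With the correction it was 9 and 1 (24.3% and 2.7%, background 6.14% and 7.14%), and with the mean over transcripts 6 and 3 (background 6.32% and 7.02%). The difference was 2.91 for BRCA2 at 50 nM (SE 0.42, adjusted p = 1.59e-05) and 1.69 with the correction (adjusted p = 2.53e-05). At 500 nM it was 2.46 and 1.55. The median of this difference over all genes tested was -0.12 at 50 nM without the correction and -0.01 with it. The groups compared here had GC trends of opposite sign, positive in all 6 ABBV-744 libraries without IFNg and negative in all 6 with it, and treatment and trend cannot be told apart within these groups. Reads that align to several places also differed at 50 nM, at 66.2% to 69.4% without IFNg and 57.5% to 59.6% with it. At 500 nM they were 64% to 68.1% and 64.3% to 66.3%. The part of this difference was not tested.

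The called members were also held to the fold threshold of the study, an absolute log2 fold change of 1.5. With ABBV-075 it was passed by 1 of the 37 members (2.7%, background 4.61%), BRCA2. With IFNg present 2, 4 and 3 members passed with ABBV-075 and with ABBV-744 at 50 nM and 500 nM. These were 5.41%, 10.8% and 8.11% of the members (background 6.71%, 2.42% and 2.49%), above the background with ABBV-744 only. With the GC correction 0 members passed with ABBV-075 (background 4.15%). With IFNg 1 member, BRCA2, passed in each of the 3 comparisons (2.7%, background 5.07%, 0.625% and 1.15%).

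Promoters of the members were searched for letters bound by cell cycle factors. RefSeq (GRCh38.p14) gave a window from 250 bases before to 50 after the start for 32 of the 37 members, and NBN, FANCI, WRN, PRKDC and XRCC5 had none. The E2F letters TTTCCCGC or TTTGGCGC, on either strand, were found in 6 of 32 windows (18.8%), in MDM2, XRCC2, FANCD2, XRCC6, MSH6 and XPC, against 2.27% of 35116 promoters of this length. The letters are rich in G and C, and so were the windows of the members, with a median of 63.8% GC against 58.7% over all promoters. The promoters were not limited to those of tested genes. A single window was used for each member, and that of BRCA1 lay outside the GRCh38 span of the gene. The part of these points in the share was not tested. The CHR letters TTTGAA, on either strand, were in 4 of 32 (12.5%), against 15.2%. Windows are shown as examples for 2 members without a match, ATR and FANCM, and for 3 with one, in capitals. Of the latter XPC was called higher with ABBV-075, XRCC6 lower and FANCD2 in neither direction, both without and with the GC correction.
ATR, chr3:142578684-142578983, minus strand: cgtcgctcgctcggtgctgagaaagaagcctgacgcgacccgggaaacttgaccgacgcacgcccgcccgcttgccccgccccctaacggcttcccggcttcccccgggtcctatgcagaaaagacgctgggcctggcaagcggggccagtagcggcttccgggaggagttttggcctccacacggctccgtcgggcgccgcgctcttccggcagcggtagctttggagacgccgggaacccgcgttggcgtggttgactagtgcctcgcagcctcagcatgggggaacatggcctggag
FANCM, chr14:45135680-45135979, plus strand: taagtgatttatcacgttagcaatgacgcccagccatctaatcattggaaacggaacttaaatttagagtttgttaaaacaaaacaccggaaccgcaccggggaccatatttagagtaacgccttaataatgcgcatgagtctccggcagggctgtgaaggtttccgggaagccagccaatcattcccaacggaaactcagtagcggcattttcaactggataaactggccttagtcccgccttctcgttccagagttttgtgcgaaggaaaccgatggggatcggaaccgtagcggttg
XPC, chr3:14178552-14178851, minus strand: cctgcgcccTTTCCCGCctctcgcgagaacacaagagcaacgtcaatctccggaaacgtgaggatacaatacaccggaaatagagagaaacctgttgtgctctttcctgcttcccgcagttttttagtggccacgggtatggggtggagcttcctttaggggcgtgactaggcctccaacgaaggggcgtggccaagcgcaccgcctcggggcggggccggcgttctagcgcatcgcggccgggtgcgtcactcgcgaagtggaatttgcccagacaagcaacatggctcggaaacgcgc
FANCD2, chr3:10026187-10026486, plus strand: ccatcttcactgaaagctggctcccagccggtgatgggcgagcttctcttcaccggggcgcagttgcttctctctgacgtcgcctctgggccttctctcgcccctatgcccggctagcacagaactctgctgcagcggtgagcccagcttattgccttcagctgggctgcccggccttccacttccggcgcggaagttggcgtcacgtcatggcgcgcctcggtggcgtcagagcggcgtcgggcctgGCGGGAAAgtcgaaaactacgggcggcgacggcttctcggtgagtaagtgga
XRCC6, chr22:41621045-41621344, plus strand: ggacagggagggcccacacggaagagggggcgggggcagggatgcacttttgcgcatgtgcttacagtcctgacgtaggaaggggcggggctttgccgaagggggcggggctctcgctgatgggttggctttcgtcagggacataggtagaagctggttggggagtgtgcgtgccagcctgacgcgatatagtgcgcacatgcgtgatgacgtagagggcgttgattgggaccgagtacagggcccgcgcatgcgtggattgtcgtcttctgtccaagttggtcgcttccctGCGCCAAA
The windows of ATR and XPC hold 68.3% and 60.3% GC. A match says only that the letters are there.

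Other genes of the same pathways were counted with ABBV-075 against DMSO, beside the 25% of all tested genes that were higher and the 22.3% that were lower (23.6% and 25.1% with the GC correction). Of 17 further recombination and Fanconi genes, 9 were higher and 0 lower, and 6 and 1 with the GC correction. RAD54B, a motor protein of strand exchange (log2 fold change 1.51, and 1.06 with the correction), GEN1, which cuts recombination junctions (1.29 and 0.94), and EME1, a nuclease subunit (1.02 and 1.12), were called in both fits. Of 17 further checkpoint genes, 9 were higher and 0 lower, and 8 and 1 with the correction, among them CLSPN, an adaptor of CHEK1 (1.13 and 1.06), and USP1, which deubiquitinates FANCD2 (1.1 and 0.68). Of 7 further end joining genes 1 was higher and 2 lower in both fits, including the ligase LIG3 (-0.82 and -0.76). Of 12 base excision repair genes 0 were higher and 2 lower, and 1 and 3 with the correction, with the glycosylase NTHL1 at -1 and -0.88. Of 8 tested nucleotide excision genes 2 were higher (25%, the same as the background) and 1 lower, and 3 and 1 with the correction. Of 3 mismatch repair genes 2 were higher, and 1 with the correction, MSH3 (1.03 and 0.86).

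Targets of p53 and genes of the cell cycle were counted in the same comparison. Of 12 targets of p53, 1 was higher and 5 lower with ABBV-075 in both fits (8.33% and 41.7%). PHLDA3 (log2 fold change -1.17 and -1.02), AEN (-0.95 and -0.84) and the cell cycle inhibitor CDKN1A (-0.66 and -0.52) fell, and TP53I3 rose (0.8 and 0.94). Of 26 genes of S phase and mitosis, 8 were higher and 7 lower (30.8% and 26.9%, near the background of 25% and 22.3%), and 7 and 9 with the correction. The mitotic kinase BUB1 (1.26 and 1.08) and the topoisomerase TOP2A (1.1 and 0.68) rose, and the replication helicase subunit MCM5 (-1.07 and -0.92) and the mitotic kinase PLK1 (-1.02 and -0.87) fell.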

How the data were processed

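RNA of 24 HepG2 libraries (8 groups of 3) was sequenced. The submitters' notes name CASAVA 1.8.2, Trimmomatic 0.33, STAR 2.7.1, DESeq2 and the hg38 build. The authors deposited whole-number counts of reads per gene for each library, and the column of the gene's strand was used. Reads that align to several places (56% to 69.4% per library) are not in these counts. That leaves 2978982 to 4304103 counts per library and limits genes with near-identical copies.

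From these counts, edgeR 4.0.16 (R 4.3.3) with TMM scaling and its expression filter fitted the 24 libraries with 8 group means. Contrasts were tested two-sided by the quasi-likelihood test with Benjamini-Hochberg adjustment over 11676 genes. SE is the log2 fold change divided by the root of F, and intervals are 95%. A second fit took out the GC trend of each library (lowess, span 0.3, on log2 CPM with a prior count of 2) as an offset. GC content and length are of the longest transcript in the annotation, for 11382 of the genes tested. The mean GC content over transcripts was an alternative chosen after seeing the data. DESeq2 1.42.0 and other scalings, filters, corrections, a replicate block and fits without each library were alternatives.

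The scripts were tested on simulated data. Members and other gene lists were chosen with earlier results of these data known. Any member could be named. Values in every library were due for the 8 members with the largest fold change among those called with ABBV-075 and the 4 of each further main comparison, and of other lists up to 4 called genes with the largest change were named. Values in every library of BARD1 and XRCC5 were added after they were seen.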

Additional observations from a re-analysis of the deposited data

Results flagged for a closer look

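The effect of ABBV-744 on the members differed with and without IFNg by a test of the difference itself. It was called in 27 members at 50 nM and in 22 at 500 nM (73% and 59.5%), against 46.5% and 28.4% of all genes tested. With the GC correction it was 15 and 10 members (40.5% and 27%), against 18.6% and 13.3% of all genes tested. With the mean GC content over transcripts it was 10 and 9 members. There 9.08% of all genes were higher and 9.57% lower at 50 nM, and 6.32% and 7.02% at 500 nM. The members below were called there both without and with the GC correction, and each value is the log2 fold change with IFNg present less that without it, first before the correction and then with it.

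At 50 nM the difference was 1.94 and 1.06 for ATM, 1.65 and 0.8 for ATR, and -0.96 and -0.52 for the adaptor MDC1. In the BRCA group it was 1.14 and 0.73 for BRCA1, 2.91 and 1.69 for BRCA2, 0.86 and 0.38 for PALB2, and 1.58 and 0.51 for BRIP1. Among resection genes it was 1.98 and 1.35 for RAD50, 2.16 and 0.86 for NBN, and 1.63 and 0.82 for RBBP8. It was 1.19 and 0.98 for RAD51C, 1.17 and 0.61 for FANCI, 2.04 and 0.94 for FANCM, and 1.51 and 0.88 for BLM. With the mean over transcripts ATR, BRCA1, PALB2, BRIP1, RBBP8, RAD51C and BLM were not called.

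At 500 nM it was 1.69 and 1.04 for ATM, 1.53 and 0.92 for ATR, 1.25 and 0.99 for BRCA1, 2.46 and 1.55 for BRCA2, and 0.699 and 0.38 for PALB2. It was 1.21 and 0.77 for RAD50, 1.43 and 0.69 for MRE11A, 1.59 and 0.61 for NBN, and 1.64 and 0.83 for FANCM. With the mean over transcripts PALB2, RAD50 and FANCM were not called. The GC trends of the libraries had opposite signs with and without IFNg at both doses, and the trend and the treatment cannot be told apart within these groups.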

How the results depend on the processing

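A change of sign was counted only for values called in the main fit or in the alternative. Over all members, comparisons and other settings, 5743 values kept their status as called or not called. A further 372 lost the call, 124 gained one and 76 turned their sign. With 1 library left out, 3342 kept that status, 171 lost the call, 39 gained one and 0 turned their sign by this rule. Values that were not called could still turn. The log2 fold change of RAD54L with ABBV-075 against DMSO ran from -0.31 to 0.14 and was never called. Below, reversals are given for the members and comparisons named in the text. Where no other value is given, the cause was not tested.

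The number of members called depended on the setting and on the libraries kept. The counts here and below are given without the share of all tested genes called in the same fit. They thus cannot be read as particular to the members. With the GC correction, with GC and length corrected together, and with the GC correction and a replicate block, it was 14, 14 and 15 for ABBV-075 against ABBV-744 at 50 nM, and 2, 2 and 2 for ABBV-744 at 50 nM against DMSO. It was 1, 1 and 1 for IFNg, and 17, 16 and 17 for IFNg with ABBV-744 at 50 nM. For the interaction it was 15, 14 and 15 at 50 nM, and 10, 11 and 10 at 500 nM. With the mean GC content over transcripts, an alternative chosen after seeing the data, it was 12 between the compounds at 50 nM, 4 for ABBV-744 at 500 nM against DMSO, 1 for IFNg, 16 for IFNg with ABBV-744 at 50 nM, and 10 and 9 for the interactions. For ABBV-075 against DMSO it was 11 with both corrected, and 10 with the GC correction but without ABBV-075 replicate 1. For ABBV-744 at 50 nM it was 3 with library size only, 12 with no filter on low counts and 8 with only the libraries compared. At 500 nM it was 1 with DESeq2, 1 with library size only, 4 with only the libraries compared and 1 with unstranded counts. Between the compounds with IFNg it was 9 with only the libraries compared.

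Libraries of different groups share only a replicate number, and pairing by that number did not hold in every comparison. The deviations of 84 pairs of the same number had a median correlation of 0.0064, and in no comparison were all 3 pairs over 0.1. Of these 84 pairs 24 were over 0.1, against 29 of 168 pairs of other numbers. Replicate 1 had the lowest GC trend in every group but DMSO, and the source of this was not tested. In each comparison 0 to 5 of 6 libraries correlated best with their own number. With the replicate block, 4 members were called for ABBV-744 at 500 nM against DMSO and 8 between the compounds with IFNg, and the other counts of calls stayed within 1.5 times.

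With 1 library left out, the number called ran from 9 to 24 for ABBV-075, from 1 to 9 and from 1 to 2 for ABBV-744 at 50 nM and 500 nM, and was 0 for IFNg. With IFNg it ran from 21 to 24, 25 to 26 and 20 to 22. Between the compounds it ran from 21 to 25 without IFNg and from 1 to 9 with it, and between the doses it was 0. For the interactions it ran from 0 to 1 (ABBV-075), 24 to 29 and 16 to 22.

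BARD1 turned negative with the GC correction (-0.496 with IFNg and ABBV-075, -0.347 and -0.297 with IFNg and ABBV-744 at 50 nM and 500 nM, -0.33 between the compounds). With GC and length corrected it was at -0.53, -0.37, -0.32 and -0.37, and with GC and the replicate block at -0.496, -0.35, -0.295 and -0.33. With ABBV-075 against DMSO, PRKDC turned to -0.31 with length and -0.18 with both corrected, MRE11A to -0.0115 with both and -0.0645 with GC corrected without replicate 1, and MDM2 to -0.0507 with both, -0.00054 with GC corrected without replicate 2 and -0.0338 with the mean over transcripts. Over members, the correlation with GC content moved to -0.76 (IFNg with ABBV-075), -0.83 and -0.81 (with ABBV-744 at 50 nM and 500 nM) as Spearman's rho, and to -0.82 at 50 nM with the mean over all transcripts. That with length moved to 0.703, 0.699 and 0.708 with the mean over all transcripts, and to 0.61 as rho at 500 nM.

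Depth limits the members with few counts, LIG4, XPC, WRN and TP53BP1, with lowest counts of 4, 7, 21 and 21 in a library.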
